A study of Mus musculus with 18 samples.

Results

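The comparison described here asks whether the loss of Pth1r changed gene expression differently in 2 sorted subsets of bone cells. It is a difference of differences: the knockout effect in GFP-positive bone (knockout minus control) minus the knockout effect in GFP-negative bone, on a log2 scale. The libraries were chosen by the titles the submitters gave them, and 12 of the 18 libraries of the series belong to it, 3 in each of 4 groups. All 15516 genes with enough reads were tested in 1 fit, so the comparison has no members chosen by their values. A positive difference means that the knockout effect was higher, or less negative, in GFP-positive bone.

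The study sequenced RNA from freshly sorted cells derived from osterix-expressing cells of mice at postnatal day 21. The control groups are labelled wild type, and the knockout groups are labelled as a conditional PTH1R knockout, which the title of the series places in osteoprogenitors. The Cre line, the deleted exons, and the genes that drive GFP and Tm were not given in the sources used here. In the titles the subsets are Bone GFP+, here GFP-positive bone, and Bone GFP-Tm+, here GFP-negative bone, and the labels call the cells of both bone cells. The groups used here therefore share age, tissue and the osterix-derived origin, and differ by genotype and by sorted subset. Whether each of the 3 libraries of a group is a different animal is not stated in the labels. The p-values therefore measure only the spread between these libraries, which may be technical in part.

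Pth1r encodes the receptor shared by parathyroid hormone and parathyroid hormone-related protein. It couples mainly to the stimulatory G protein and raises cyclic AMP, which acts through protein kinase A, salt-inducible kinases and CREB-family factors. In the growth plate it is known for holding chondrocytes back from hypertrophy in a feedback loop with Indian hedgehog, and in the osteoblast lineage it governs bone formation and the release of osteoclast cytokines.

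Library totals ran from 16497792 to 27160257 counted reads, with 18486 to 20112 genes detected per library. Levels are given as CPM, the usual rescaling of counts to a common library size, with TMM factors, and a count of 3 in a library corresponded to 0.114 to 0.216 CPM. The sorted subsets differed in their markers already in the controls. The summed level of 6 chondrocyte markers, as CPM of the library total, was 100800 to 125000 in control and 238300 to 252100 in knockout GFP-positive bone, against 27040 to 36830 and 19700 to 22150 in GFP-negative bone. The 6 osteoblast markers summed to 33620 to 55470 and 35320 to 48980 in GFP-positive bone, and to 217500 to 239800 and 264500 to 346300 in GFP-negative bone. Both subsets thus held RNA of both lineages under 1 cell label, with chondrocyte RNA ahead in GFP-positive and osteoblast RNA ahead in GFP-negative bone. In bulk RNA, fewer cells of a type and less RNA per cell cannot be told apart.

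The knockout effect differed between the subsets for 944 of the 15516 genes at an adjusted p under 0.05 (edgeR's quasi-likelihood test with Benjamini-Hochberg adjustment), which is 6.08% of the genes tested. At an unadjusted p under 0.05 there were 3029 genes. The difference was positive for 772 genes (4.98%) and negative for 172 (1.11%), so 81.8% of the calls lay on the GFP-positive side. For comparison, the knockout effect itself was called higher for 26% and lower for 25.3% of genes in GFP-positive bone, and higher for 21.5% and lower for 25.7% in GFP-negative bone. Differences of at least 2-fold made up 490 of the positive calls (3.16% of genes) and 59 of the negative ones (0.38%). The median difference over all genes tested was 0.07, and it ranged from -0.08 to 0.10 over the alternative settings, so it moved by over 0.1 between ways of scaling the libraries.

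The excess of positive calls depended on the scaling. With DESeq2's size factors the split was 625 positive and 259 negative, with library totals alone 457 and 278, with DESeq2 itself 872 and 548, without a filter on low counts 474 and 226, and with the trend on gene length removed 516 and 419. With the replicate number as a block within each genotype, which was fitted on the 12 bone libraries, it was 1160 and 280 out of 1440 calls, against 858 and 169 out of 1027 in the same libraries without the block. In each of these settings positive calls outnumbered negative ones, and none of the 944 genes was called with the opposite sign in any of them. Removing the length trend also moved the centre of each library. The median difference was then -0.075, against 0.074 in the fit used here. The parts of gene length and of this recentring in the changed split were not tested.

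**Figure D1:**
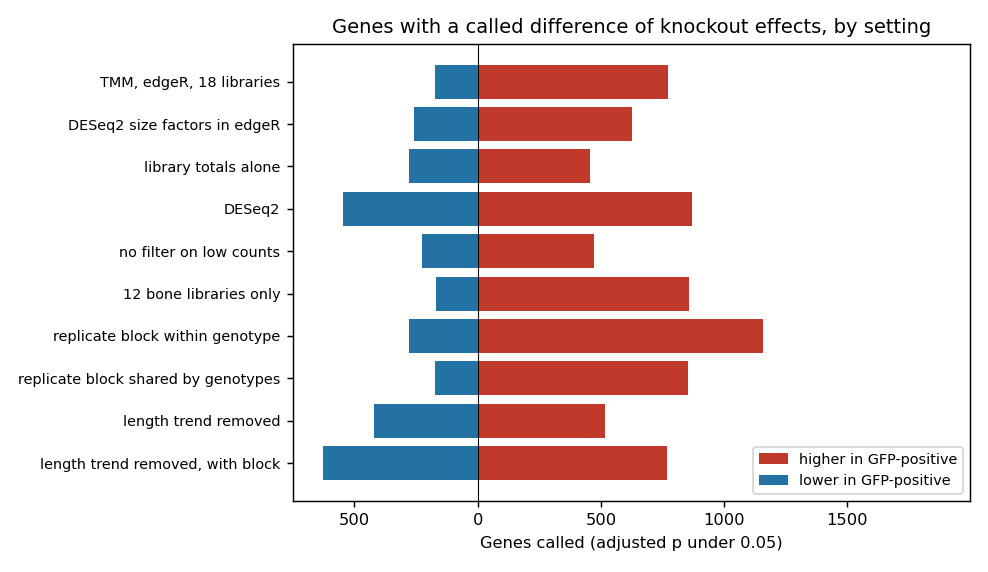
Genes called with a difference of knockout effects under 10 ways of fitting the counts, with positive calls drawn to the right and negative calls to the left of 0 (x axis, number of genes). The fit used in the text has 772 positive and 172 negative calls, and the counts are closest to even with the length trend removed, at 516 and 419 without the replicate block and 770 and 629 with it. Removing the length trend also moves the centre of each library.

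The calls held several patterns. Of the 944 genes, 120 (12.7%) were called in opposite directions in the subsets, 112 of them rising in GFP-positive bone and falling in GFP-negative bone and 8 the other way round. Another 300 (31.8%) were called in GFP-positive bone without a call in GFP-negative bone, and 230 (24.4%) were called only in GFP-negative bone. Where the knockout effect was called in 1 direction in both subsets, it was larger in GFP-positive bone for 192 (20.3%) and larger in GFP-negative bone for 102 (10.8%). The most frequent form was thus a knockout effect that passed the test in GFP-positive bone and not in GFP-negative bone.

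**Figure D2:**
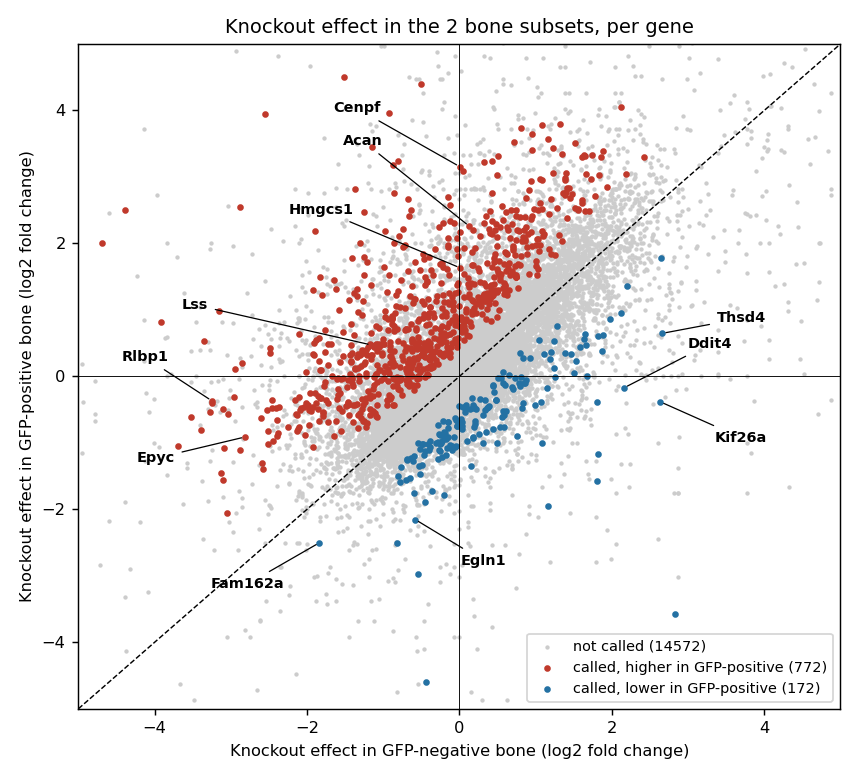
Knockout effect of each gene in GFP-negative bone (x axis) against GFP-positive bone (y axis), as log2 fold changes, with the dashed line marking equal effects. Red points are the 772 genes with a called positive difference and blue points the 172 with a called negative one. The axes end at 5 on each side, and 150 genes, 10 of them called, lie outside.

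Pth1r itself, at chr9:110722085-110747145 on the minus strand in mm10, checks the labels as far as its total count can. In GFP-positive bone it had 4478, 4839 and 5032 CPM in the controls and 4036, 3253 and 2724 CPM in the knockouts, and in GFP-negative bone 1673, 1668 and 1909.8 against 1397, 1136 and 1030.4 CPM. Each knockout library lay below each control library of its subset. The fall was 0.52 on the log2 scale in GFP-positive bone (adjusted p = 0.00226) and 0.56 in GFP-negative bone (adjusted p = 0.00145, edgeR's quasi-likelihood test). The difference of the effects was 0.04 ± 0.18 (SE, 95% interval -0.34 to 0.42, adjusted p = 0.943). The interval bounds a subset difference in this loss of reads to less than 0.42 on the log2 scale in either direction, and the sign of the difference changed between settings. The count covers the whole gene, and since the deleted exons are not known here, it does not measure the loss of a working receptor.

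Most gene lists had few called differences. The largest shares of positive calls among the function lists were in cholesterol synthesis (17 of 20 measured members), cartilage (22 of 28), the cell cycle (12 of 27) and the osteocyte list (6 of 14), each with no negative call. Against these, 4.98% of all genes were called positive. Their median differences were 1.44, 1.5, 0.99 and 0.81, against 0.07 for all genes. The counts of the last pair were less stable: the cell cycle had 7 to 12 and the osteocyte list 4 to 6 positive calls when 1 library was left out. The list of hypoxia targets went the other way, with 7 of 22 called negative and 1 positive and a median of -0.70, against 1.11% of all genes called negative. Glycolysis genes, with the hypoxia core described below in 13 of 20 promoters, were kept as a list of their own. There 3 of 21 were called positive and none negative, with a median of 0.14. The negative direction thus holds for the hypoxia list as drawn up here. These lists were chosen with earlier results of these data known, so their counts are a description.

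**Figure D3:**
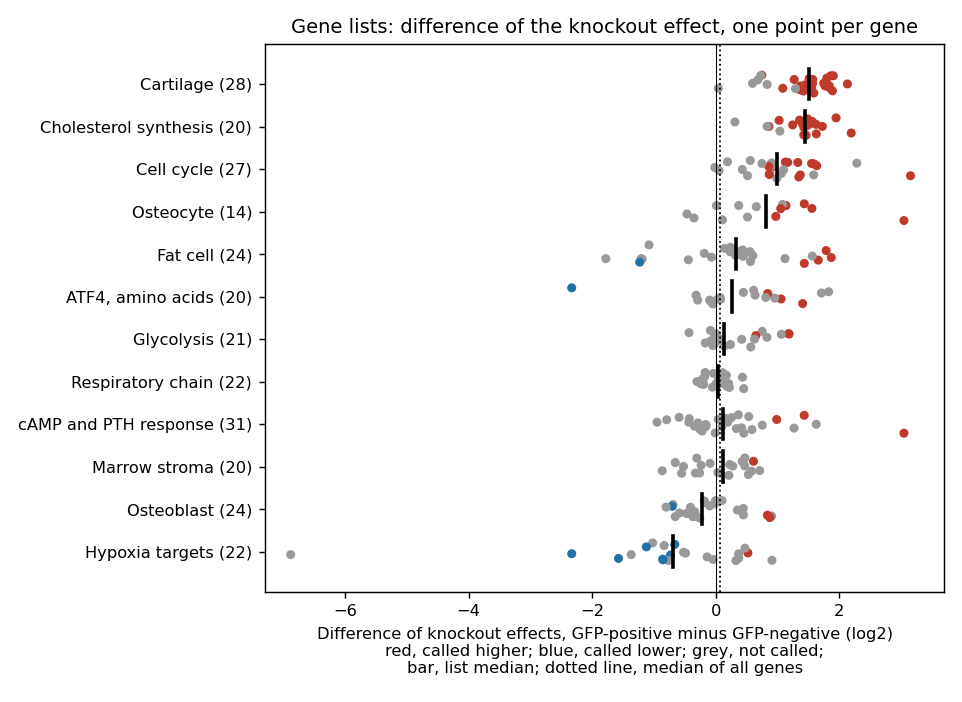
Difference of knockout effects, GFP-positive minus GFP-negative (x axis, log2), for each tested gene of 12 lists, with the number of genes in parentheses. Red points were called positive, blue points negative and grey points not called, black bars are list medians and the dotted line is the median of all genes. The points of cartilage and cholesterol synthesis all lie above 0, and the far left point is Car9, which was not called.

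Cholesterol is built from acetyl-CoA through HMG-CoA, mevalonate, farnesyl pyrophosphate, squalene and lanosterol. The enzymes are transcribed together under SREBP-2, whose activity falls when sterols are plentiful. Both subsets had these transcripts in the controls, with a higher mean in GFP-positive bone for each of the 20 genes. In GFP-positive bone 13 of the 20 genes rose and 3 fell, and in GFP-negative bone none rose and 17 fell.

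At the entry of the pathway, Hmgcs1, which makes HMG-CoA, had the smallest p of the whole comparison. It had 258, 303 and 278 CPM in control and 842, 935 and 821 CPM in knockout GFP-positive libraries, and 87.9, 90.3 and 101 CPM in control and 97.4, 96.9 and 87.04 CPM in knockout GFP-negative libraries. The 3 knockout GFP-positive libraries stood far above all others, and the genotypes overlapped in GFP-negative bone. The difference was 1.62 ± 0.12 (SE, 95% interval 1.36 to 1.88, adjusted p = 9.88e-07, edgeR's quasi-likelihood test).

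In all, 10 of the 20 genes were called in opposite directions in the subsets. Lss, which closes squalene epoxide into lanosterol, had 108, 108 and 113 CPM in control and 140.3, 153 and 164 CPM in knockout GFP-positive libraries, but 36.6, 34.98 and 35.3 CPM in control and 15.9, 15.9 and 16.3 CPM in knockout GFP-negative libraries. The groups overlapped in neither subset, and the difference was 1.63 ± 0.14 (SE, 95% interval 1.32 to 1.93, adjusted p = 2.31e-06, edgeR). Fdft1, the squalene synthase, rose from a mean of 206 ± 19.8 to 282 ± 17.5 CPM (SD, n = 3) in GFP-positive bone and fell from 70.3 ± 4.89 to 33.9 ± 2.01 CPM in GFP-negative bone. Its difference was 1.51 ± 0.15 (SE, adjusted p = 6.76e-06, edgeR). Sqle, the squalene epoxidase and the second control point of the pathway, rose by 0.72 and fell by 0.71 on the log2 scale. Idi1, the isomerase of the 5-carbon units, rose by 0.49 and fell by 0.99. Cyp51, the lanosterol demethylase, had 376, 402 and 364 CPM in control and 401, 489.8 and 599 CPM in knockout GFP-positive libraries, and 120.4, 129 and 127 CPM in control and 50.7, 52.8 and 75.03 CPM in knockout GFP-negative libraries, a difference of 1.46 ± 0.20 (SE, adjusted p = 0.00017, edgeR). Its GFP-positive groups overlapped and its GFP-negative groups did not.

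Other members fell in both subsets and fell further in GFP-negative bone. Fdps, which makes farnesyl pyrophosphate, fell by 0.30 in GFP-positive and by 1.86 in GFP-negative bone, and Mvk, the mevalonate kinase, fell by 0.59 and 1.45 on the log2 scale. Srebf2, which encodes SREBP-2, rose by 0.96 in GFP-positive and fell by 0.40 in GFP-negative bone, with a difference of 1.36 ± 0.17 (SE, adjusted p = 5.99e-05, edgeR). Insig1, which keeps the factor in the endoplasmic reticulum and is itself its target, had a difference of 1.02. Among the members whose difference was not called were Nsdhl (0.31) and Dhcr7 (0.83), both with positive values. In the alternative settings 16 to 18 of the 20 genes were called positive and none negative, with medians of 1.29 to 1.54.

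**Figure D4:**
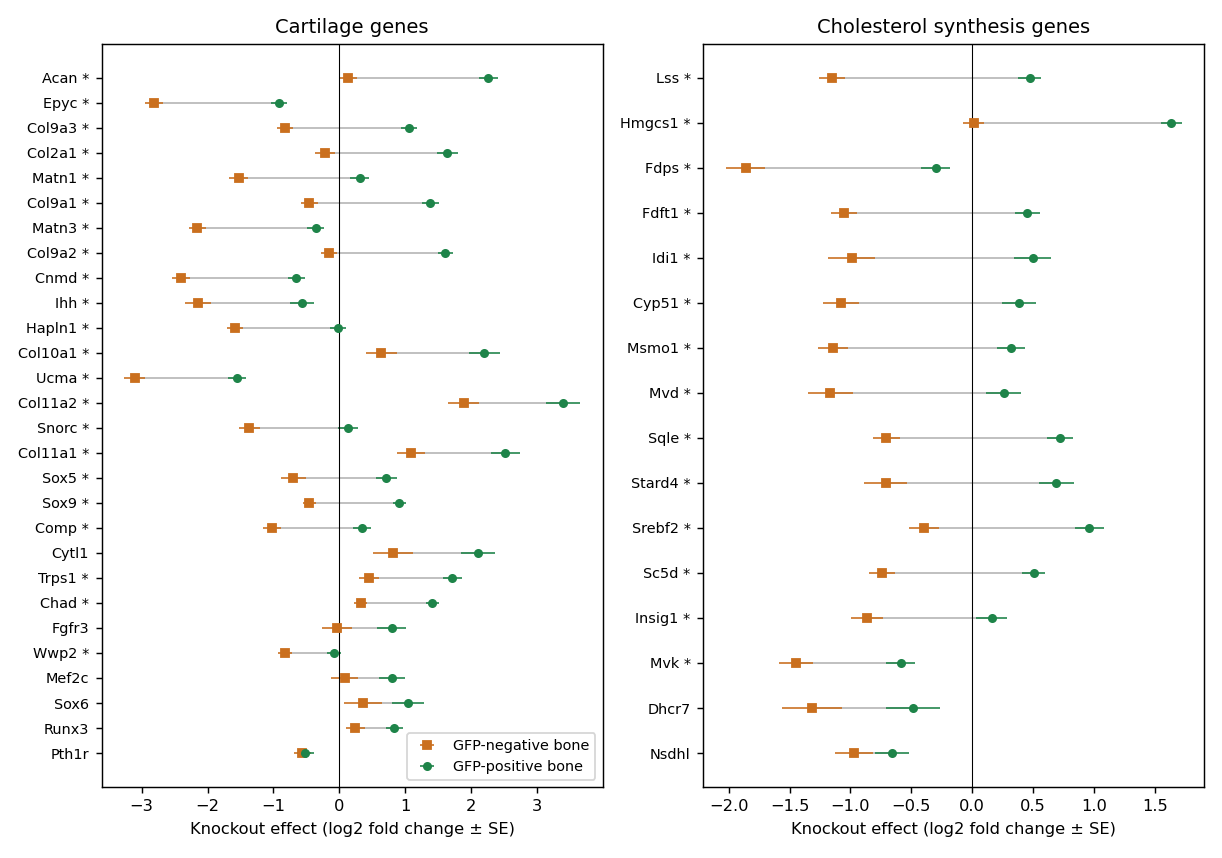
Knockout effect (x axis, log2 fold change with its SE) of cartilage genes (left) and of cholesterol synthesis genes (right), in GFP-negative bone (orange squares) and GFP-positive bone (green circles), with an asterisk after genes whose difference was called. In each row the green circle lies to the right of the orange square, and Pth1r, in the lowest row on the left, is the pair that nearly coincides.

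The promoters of 3 of these genes are shown because a CCAAT box beside the sterol response element is a known feature of sterol-regulated promoters. Capitals mark the box CCAAT, read as ATTGG on the opposite strand, and the sterol core CACCCCAC. The sequences are from RefSeq (GRCm38.p6), cover 250 bases before to 50 after the gene start, and run 5' to 3' along the gene. They are Hmgcs1 at chr13:119690101-119690400 on the plus strand, Lss at chr10:76531355-76531654 on the plus strand and Idi1 at chr13:8885356-8885655 on the plus strand.
Hmgcs1: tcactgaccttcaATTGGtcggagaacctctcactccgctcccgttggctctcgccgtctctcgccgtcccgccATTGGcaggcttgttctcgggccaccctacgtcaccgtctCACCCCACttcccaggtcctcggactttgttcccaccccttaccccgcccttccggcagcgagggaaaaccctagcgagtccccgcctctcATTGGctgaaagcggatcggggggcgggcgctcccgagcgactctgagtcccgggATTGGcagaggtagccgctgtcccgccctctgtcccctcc
Lss: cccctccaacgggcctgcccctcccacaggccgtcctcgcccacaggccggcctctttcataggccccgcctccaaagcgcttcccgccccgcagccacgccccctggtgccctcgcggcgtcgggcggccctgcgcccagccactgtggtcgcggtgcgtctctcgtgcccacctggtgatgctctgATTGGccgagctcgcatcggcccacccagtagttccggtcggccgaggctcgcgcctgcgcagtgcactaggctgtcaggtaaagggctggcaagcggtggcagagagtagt
Idi1: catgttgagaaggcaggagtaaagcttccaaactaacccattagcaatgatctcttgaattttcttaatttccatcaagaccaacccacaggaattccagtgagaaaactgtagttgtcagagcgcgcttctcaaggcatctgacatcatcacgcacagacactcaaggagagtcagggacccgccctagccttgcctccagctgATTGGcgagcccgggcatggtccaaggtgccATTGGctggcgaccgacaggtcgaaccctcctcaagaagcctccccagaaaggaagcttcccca
The Hmgcs1 promoter held 4 CCAAT boxes and 1 sterol core, the Idi1 promoter 2 boxes and the Lss promoter 1 box. All boxes in these promoters read on the opposite strand. Of the 20 genes, 12 had a promoter in the table, and all 12 held CCAAT on either strand, against 42.4% of the 11256 tested genes with a promoter. The sterol core was found in 1 of the 12, against 3.86% of all, and the box and the core share no bases. CCAAT was also found in 45.9% of the promoters of genes called positive and 43.7% of those called negative, both close to the share of all promoters, and in 15 of 17 promoters (88.2%) of the endoplasmic reticulum chaperone list, which had no called difference. Both motifs were added after the data had been seen, and a match is a description of the letters.

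The cartilage list had the largest number of called genes. The list holds the fibrils and proteoglycans of the matrix, the SOX transcription factors that switch them on, and regulators of the growth plate. In GFP-positive bone 18 of the 28 genes rose and 6 fell, and in GFP-negative bone 6 rose and 15 fell. The 6 chondrocyte markers of the cell check belong to the same list, and all 6 of them were called positive. Their summed level moved with this result as given above, and the part of cell numbers in it was not tested.

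Acan encodes aggrecan, the main cartilage proteoglycan, and had the largest difference of the list. It had 1577, 1266 and 1554 CPM in control and 7726, 7365 and 5957 CPM in knockout GFP-positive libraries, against 540.3, 527 and 662 CPM in control and 677, 599.6 and 614 CPM in knockout GFP-negative libraries. The GFP-positive groups were far apart, the GFP-negative groups overlapped, and the difference was 2.13 ± 0.19 (SE, 95% interval 1.72 to 2.54, adjusted p = 2.97e-06, edgeR's quasi-likelihood test). Col2a1, the main cartilage collagen, took 8.31% to 10.5% of all reads of control and 21.2% to 22.6% of knockout GFP-positive libraries, and its difference was 1.86 ± 0.22 (SE, adjusted p = 2.99e-05, edgeR). In GFP-negative bone it took 2.27% to 3.12% of reads in the controls and 1.74% to 1.98% in the knockouts.

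The partners of collagen II in its fibril split into 2 forms. The collagen IX gene Col9a3 had 8908, 9349 and 10515 CPM in control and 22392, 19000 and 18624 CPM in knockout GFP-positive libraries, and 2357, 2602 and 3204 CPM in control and 1625, 1415 and 1562 CPM in knockout GFP-negative libraries. It rose in the first subset and fell in the second without overlap, and the difference was 1.89 ± 0.17 (SE, adjusted p = 2.31e-06, edgeR). Col9a1 had the same form, rising by 1.38 and falling by 0.46. Col11a1 and Col11a2, which encode collagen XI, instead rose in both subsets, by 2.52 and 3.39 in GFP-positive and by 1.08 and 1.89 in GFP-negative bone. Col10a1, the collagen of hypertrophic chondrocytes, also rose in both, by 2.20 and 0.64, with a difference of 1.56 ± 0.33 (SE, adjusted p = 0.0091, edgeR). These 3 differences were called, but not without the filter on low counts (adjusted p up to 0.0841).

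Epyc, Cnmd and Ucma fell in both subsets and fell further in GFP-negative bone. Epyc, which encodes the proteoglycan epiphycan, had 1628, 1484 and 1799.8 CPM in control and 933, 774 and 905 CPM in knockout GFP-positive libraries, and 408, 349 and 491 CPM in control and 66.2, 54.6 and 56.6 CPM in knockout GFP-negative libraries. No genotype groups overlapped, and the difference was 1.90 ± 0.17 (SE, 95% interval 1.54 to 2.26, adjusted p = 2.97e-06, edgeR). Cnmd, which encodes the angiogenesis inhibitor chondromodulin, fell by 0.65 and 2.40, and Ucma, a small secreted protein of the growth plate, by 1.55 and 3.11 on the log2 scale. The linker protein gene Hapln1 had a mean of 7289 ± 627 CPM in control and 7191 ± 193 CPM in knockout GFP-positive bone (SD, n = 3), and fell from 1909 ± 343 to 635 ± 47.4 CPM in GFP-negative bone.

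Among the regulators, Sox9, the master factor of cartilage, rose from a mean of 1557 ± 153 to 2928 ± 91.6 CPM (SD, n = 3) in GFP-positive bone and fell from 509.8 ± 56.99 to 371 ± 41.8 CPM in GFP-negative bone. Its difference was 1.37 ± 0.14 (SE, adjusted p = 7.03e-06, edgeR), and Sox5, its partner, had a difference of 1.42. Sox6, another SOX gene, was not called, with a difference of 0.68. Ihh, the hedgehog ligand of prehypertrophic chondrocytes, had 844, 901 and 923 CPM in control and 786, 586 and 436 CPM in knockout GFP-positive libraries, and 226, 201 and 243 CPM in control and 64.9, 43.9 and 42.03 CPM in knockout GFP-negative libraries. It fell in both subsets without overlap, by 0.56 and 2.15, and the difference was 1.59 ± 0.26 (SE, adjusted p = 0.00104, edgeR). The members not called were Pth1r, Runx3, Sox6, Mef2c, Fgfr3 and Cytl1, with differences from 0.04 to 1.29. The alternative settings called 19 to 24 genes of the list positive and none negative.

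**Figure D5:**
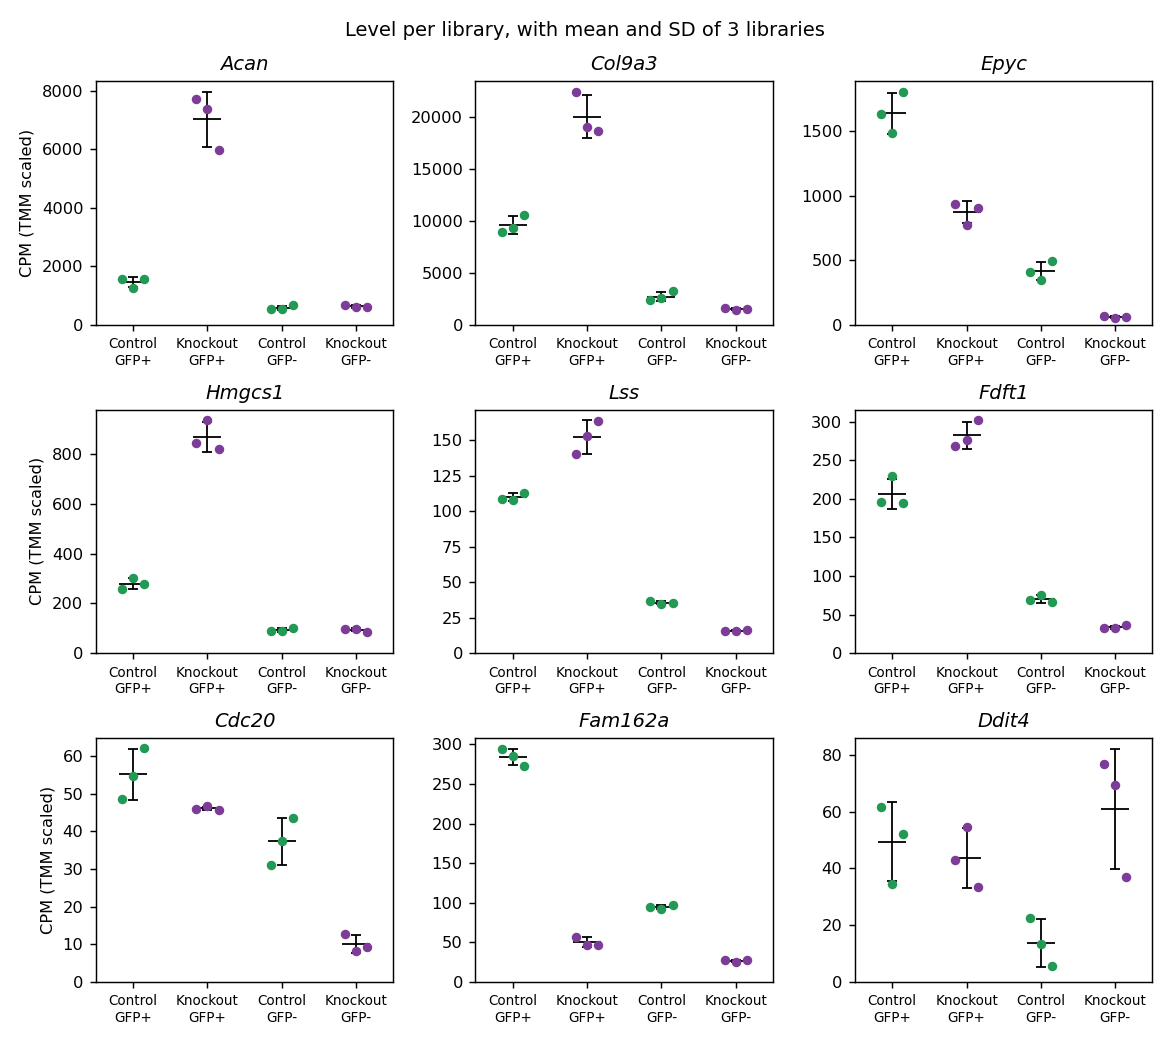
Level in each of the 12 libraries (CPM, TMM scaled, linear axes from 0) of 9 genes, with the mean and SD of the 3 libraries per group as black bars, controls in green and knockouts in purple. Acan and Hmgcs1 separate by genotype in GFP-positive bone only, Lss, Fdft1 and Col9a3 move in opposite directions, and Ddit4 separates in GFP-negative bone only.

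Cell cycle genes fell in GFP-negative bone more than in GFP-positive bone. In GFP-negative bone 23 of 27 fell and none rose, and in GFP-positive bone 14 fell and 4 rose. Cdc20, an activator of the anaphase-promoting complex, had 48.6, 54.8 and 62.1 CPM in control and 45.9, 46.7 and 45.7 CPM in knockout GFP-positive libraries, and 30.9, 37.4 and 43.5 CPM in control and 12.7, 8.19 and 9.23 CPM in knockout GFP-negative libraries. Its knockout libraries lay below the controls in both subsets, but the fall passed the test in GFP-negative bone only, and the difference was 1.63 ± 0.22 (SE, 95% interval 1.16 to 2.10, adjusted p = 0.000145, edgeR's quasi-likelihood test). Mcm6, a subunit of the replicative helicase, had a mean of 52.6 ± 6.07 and 54.1 ± 5.13 CPM in control and knockout GFP-positive bone (SD, n = 3) and fell from 50.9 ± 1.26 to 23.98 ± 1.5 CPM in GFP-negative bone, a difference of 1.12 ± 0.16 (SE, adjusted p = 0.000285, edgeR).

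Not all mitotic genes had this form. Top2a, the topoisomerase of dividing cells, rose from 14.4, 16.5 and 17.2 CPM to 28.9, 39.2 and 34.02 CPM in GFP-positive bone and fell from 16.2, 16.3 and 18.9 CPM to 14.7, 12.5 and 9.94 CPM in GFP-negative bone, a difference of 1.55 ± 0.23 (SE, adjusted p = 0.000337, edgeR). Cenpf, a kinetochore protein gene, rose by 3.15 in GFP-positive bone, while its effect in GFP-negative bone was 0.00 and not called. Cdk1, Plk1 and Ccnb1 fell in both subsets, by 0.79, 0.76 and 0.68 in GFP-positive and by 2.11, 2.10 and 1.84 in GFP-negative bone. Top2a (9013 bases) and Cenpf (15433 bases) are long genes, while Cdc20 has 1868 and Mcm6 4666 bases. Over all genes tested, the median knockout effect in GFP-positive bone was -0.38 in the shortest and 1.02 in the longest 10% of genes. The part of gene length in these forms was not tested. Over the alternative settings 7 to 18 of the 27 genes were called positive and none negative. Against 12 in the fit used here, the count was 7 without control GFP-positive replicate 1, with library totals alone and with no filter on low counts. The positive call of Plk1 was lost in 12 of 21 settings (DESeq2's size factors, library totals, no filter on low counts and the length trend removed, and leaving out control GFP-positive replicates 1 or 3, control GFP-negative replicates 2 or 3, knockout GFP-positive replicates 1 or 2 or knockout GFP-negative replicates 1 or 3), with differences of 1.06 to 1.59 and adjusted p up to 0.116. The calls of Mcm5, Cdkn1c, Cenpa and Bub1 were lost in 13, 12, 7 and 6 of 21 settings. Cdkn1c, with a difference of 0.86, encodes an inhibitor of cyclin-dependent kinases, so the 12 calls do not all belong to genes that drive division. CCAAT was found in the promoters of 18 of the 23 genes of the list that had one (78.3%).

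Gene length moved with the knockout effects. Across the genes tested, the knockout effect rose with the length of the gene in both subsets (Spearman correlation 0.379 in GFP-positive and 0.397 in GFP-negative bone). The difference of the effects had a correlation of 0.034 with length, but its calls were not spread evenly over length. The median difference was 0.12 in the shortest 10% of the genes and 0.19 in the longest 10%, with 0.01 to 0.10 in the bins between them. The shortest 10% (1552 genes) held 39 positive and 3 negative calls, and the longest 10% (1552 genes) held 106 and 7. In the bins between them there were 71 to 91 positive and 15 to 27 negative calls. Lrba, Map2, Cenpf and Aspm, which are among the largest positive differences named below, have 11590 to 19324 bases.  Thsd4, with a large negative difference, has 13986. These values are taken across genes of the same libraries and carry no test, and the source of the trend was not tested.

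Hypoxia targets were the list with the most negative calls. Cells sense oxygen through prolyl hydroxylases, which mark the alpha subunits of the hypoxia-inducible factors for destruction, and the growth plate is poor in vessels. In GFP-positive bone 14 of the 22 genes fell and 6 rose, and in GFP-negative bone 9 fell and 6 rose. Egln1 encodes the main prolyl hydroxylase and is itself induced by low oxygen. It had 33.5, 18.7 and 25.5 CPM in control and 6.39, 3.59 and 7.91 CPM in knockout GFP-positive libraries, and 18.6, 10.4 and 12.2 CPM in control and 10.2, 7.26 and 10.01 CPM in knockout GFP-negative libraries. All knockout libraries of GFP-positive bone lay below the controls, the GFP-negative groups nearly met, and the difference was -1.58 ± 0.41 (SE, 95% interval -2.45 to -0.71, adjusted p = 0.0292, edgeR's quasi-likelihood test). The call was lost in 6 of 21 alternative settings, each of them leaving out 1 library (control GFP-positive replicate 1, control GFP-negative replicates 2 and 3, knockout GFP-positive replicate 2, knockout GFP-negative replicates 1 and 3), with differences from -1.85 to -1.30 and adjusted p up to 0.0803 over all settings.

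The mitochondrial targets gave firmer values. Fam162a, a mitochondrial protein gene induced by low oxygen, had 294, 286 and 273 CPM in control and 57.2, 46.2 and 46.7 CPM in knockout GFP-positive libraries, and 94.8, 92.1 and 97.6 CPM in control and 27.7, 24.8 and 26.99 CPM in knockout GFP-negative libraries. It fell in both subsets without overlap, and further in GFP-positive bone, with a difference of -0.66 ± 0.13 (SE, adjusted p = 0.00494, edgeR). Bnip3l, a mitophagy receptor gene, fell from a mean of 134 ± 10.95 to 70.5 ± 0.998 CPM (SD, n = 3) in GFP-positive bone and had 103 ± 6.24 against 90.2 ± 4.47 CPM in GFP-negative bone, a difference of -0.73 ± 0.12 (SE, adjusted p = 0.000562, edgeR). Its relative Bnip3 fell by 1.41 and 1.88 and its difference, 0.47, was not called.

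Mxi1, Epas1, Kdm3a and Ddit4, which were also called negative, rose in GFP-negative bone. Mxi1, a MYC antagonist gene, had 27.95, 28.5 and 29.5 CPM in control and 26.02, 28.1 and 22.2 CPM in knockout GFP-positive libraries, and rose from 29.9, 31.6 and 35.1 to 47.7, 55.5 and 52.7 CPM in GFP-negative bone. The GFP-negative groups were apart, and the difference was -0.86 ± 0.17 (SE, adjusted p = 0.00483, edgeR). Epas1, which encodes HIF-2 alpha, rose in both subsets, by 1.79 in GFP-positive and 2.64 in GFP-negative bone. The call of Epas1 was lost in 8 of 21 settings (the 12 bone libraries alone, and leaving out control GFP-positive replicates 1 or 2, control GFP-negative replicates 1 or 3, knockout GFP-positive replicates 2 or 3 or knockout GFP-negative replicate 2) and that of Kdm3a in 6 (leaving out control GFP-positive replicates 1 or 2, control GFP-negative replicate 3, knockout GFP-positive replicates 1 or 3 or knockout GFP-negative replicate 2), with adjusted p up to 0.0973 and 0.0822. Hif1a, the gene of HIF-1 alpha, was the positive call, with a difference of 0.52 ± 0.12 (SE, adjusted p = 0.0163, edgeR), which was not called with library totals, no filter on low counts and the length trend removed (0.37 to 0.59 and adjusted p up to 0.161 over all settings). Car9, a carbonic anhydrase gene, had 3.34, 2.37 and 1.78 CPM in control GFP-positive libraries and 0 in the 3 knockout ones, and its difference was not called (adjusted p = 0.115). Over the alternative settings 3 to 9 of the 22 genes were called negative, and the median stayed between -0.84 and -0.54. The count was 3 without control GFP-positive replicate 1 and 4 without control GFP-negative replicate 3, knockout GFP-positive replicate 3 or knockout GFP-negative replicate 2. With the replicate block within genotype 8 genes were called negative and 4 positive.

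The promoters of Egln1 and Fam162a are shown because hypoxia-inducible factors are known to bind the core ACGTG, marked in capitals (CACGT on the opposite strand). Both are from RefSeq (GRCm38.p6), 250 bases before to 50 after the gene start, printed 5' to 3' along the gene. They are Egln1 at chr8:124949205-124949504 and Fam162a at chr16:36071512-36071811, both on the minus strand.
Egln1: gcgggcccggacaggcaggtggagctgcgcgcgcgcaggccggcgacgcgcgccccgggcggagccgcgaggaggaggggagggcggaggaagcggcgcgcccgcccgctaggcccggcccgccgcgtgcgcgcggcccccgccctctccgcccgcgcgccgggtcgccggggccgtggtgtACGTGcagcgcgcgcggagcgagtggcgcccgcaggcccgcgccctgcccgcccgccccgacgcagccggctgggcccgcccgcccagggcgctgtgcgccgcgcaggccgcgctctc
Fam162a: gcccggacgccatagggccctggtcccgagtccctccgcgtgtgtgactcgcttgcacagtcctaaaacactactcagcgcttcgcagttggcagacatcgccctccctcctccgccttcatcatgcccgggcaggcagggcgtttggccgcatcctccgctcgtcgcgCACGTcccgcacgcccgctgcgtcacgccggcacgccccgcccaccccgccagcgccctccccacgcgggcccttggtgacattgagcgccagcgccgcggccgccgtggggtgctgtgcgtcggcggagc
Each held 1 match, in the direction of the gene in Egln1 and on the opposite strand in Fam162a. Of the 17 hypoxia targets with a promoter in the table, 14 (82.4%) held the core, against 28.6% of all tested genes with a promoter. Among glycolysis genes it was 13 of 20 (65%). Of the promoters of all genes called negative 34.1% held it and of those called positive 28.1%. The core overlaps the E-box CACGTG, which 11.5% of all promoters held. The cyclic AMP response element TGACGTCA was found in 3.73% of promoters of positive and 1.59% of negative calls, against 3.43% of all, and its core TGACG in 32.7% and 28.6%, against 33.7%. In the list of genes that respond to cyclic AMP and to PTH, the core was found in 16 of 26 promoters (61.5%), the largest share of the function lists, and the whole element in none of the 26.

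Most glycolysis and respiration genes fell in both subsets. Of 21 tested glycolysis entries (Aldoa is present under 2 gene identifiers), 14 fell in GFP-positive and 14 in GFP-negative bone, and 3 differences were called, all positive (14.3%, against 4.98% of all genes), with a median difference of 0.14. The positive calls ranged from 2 to 7 over the alternative settings, with 6 in the 12 bone libraries alone and 7 with the replicate block within genotype. Pgk1 and Ldha, of the lower pathway, fell by 1.92 and 1.48 in GFP-positive and by 1.93 and 1.43 in GFP-negative bone, and their differences of 0.00 and -0.05 were not called. Slc2a1, the gene of the glucose transporter GLUT1, was a called exception. It had 211, 244 and 215 CPM in control and 329, 297 and 366 CPM in knockout GFP-positive libraries, and 59.1, 70.2 and 61.9 CPM in control and 41.4, 36.6 and 46.7 CPM in knockout GFP-negative libraries. It rose in the first and fell in the second subset, and the difference was 1.19 ± 0.23 (SE, 95% interval 0.69 to 1.68, adjusted p = 0.00447, edgeR).

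The other called glycolysis genes were isoforms of single steps. Aldoc, an aldolase gene, fell in both subsets, by 1.40 and 2.58, with a difference of 1.18 ± 0.26 (SE, adjusted p = 0.011, edgeR). Hk1, a hexokinase gene, rose in both, by 0.95 and 0.30, with a difference of 0.65 ± 0.16 (adjusted p = 0.0179, edgeR), a call lost in 5 of 21 settings, namely library totals, no filter on low counts and the length trend removed, and leaving out control GFP-positive replicate 1 or knockout GFP-negative replicate 2, with differences of 0.45 to 0.70 over all settings. Of 22 respiratory chain genes, 21 fell in GFP-positive and 22 in GFP-negative bone and no difference was called, with values between -0.31 and 0.45 and a median of 0.03. No alternative setting called more than 2 of them positive or 1 negative.

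Osteoblast genes showed few differences, and most of them lay on the negative side: 17 of 24 values were below 0, with 2 called positive, 1 called negative (4.98% and 1.11% of all genes) and a median of -0.22. The number called negative ranged from 0 to 7 over the alternative settings, and with the replicate block within genotype 4 genes were called positive and 5 negative. Alpl, the alkaline phosphatase gene, which releases phosphate for mineral, had 2288, 2431 and 2238 CPM in control and 3726, 3805 and 3255 CPM in knockout GFP-positive libraries, and 2997, 3259 and 3257 CPM in control and 2865, 2701 and 2479.6 CPM in knockout GFP-negative libraries. It rose in GFP-positive bone, where the groups were apart, and the difference was 0.87 ± 0.16 (SE, adjusted p = 0.00169, edgeR's quasi-likelihood test). Chondrocytes at the end of the growth plate also express Alpl. Pcolce, which encodes an enhancer of procollagen processing, fell in both subsets, by 1.11 and 0.40, with a difference of -0.71. The call of Pcolce was lost in 7 of 21 settings (without control GFP-positive replicates 1 or 2, control GFP-negative replicates 1 or 2, knockout GFP-positive replicates 1 or 3 or knockout GFP-negative replicate 1), with differences of -0.85 to -0.58 and adjusted p up to 0.0863. The positive call of the homeobox gene Dlx3 (0.83) was lost in 11 settings (DESeq2's size factors, library totals, no filter on low counts and the length trend removed, and leaving out control GFP-positive replicate 1, control GFP-negative replicates 2 or 3, knockout GFP-positive replicates 1 or 2 or knockout GFP-negative replicates 1 or 2), with differences of 0.70 to 0.99 and adjusted p up to 0.0926. The lineage factors Sp7 and Runx2 had differences of -0.02 and 0.10, and the osteocalcin gene Bglap had -0.69, none of them called.

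In the osteocyte list 6 of 14 genes were called positive (42.9%, against 4.98% of all genes) and none negative, with a median of 0.81. Phex, an endopeptidase gene that holds back FGF23, had 12.2, 11.1 and 10.8 CPM in control and 67.5, 96.7 and 80.05 CPM in knockout GFP-positive libraries, and 43.7, 44.4 and 45.4 CPM in control and 118, 122 and 114 CPM in knockout GFP-negative libraries. It rose in both subsets without overlap, and more in GFP-positive bone, with a difference of 1.43 ± 0.19 (SE, 95% interval 1.03 to 1.84, adjusted p = 0.000124, edgeR). Fbln7, a matrix glycoprotein gene, had a mean of 461 ± 26.9 and 498 ± 59.5 CPM in GFP-positive bone (SD, n = 3) and fell from 122 ± 6.79 to 63.9 ± 10.7 CPM in GFP-negative bone, and the chemokine scavenger gene Ackr3 had a difference of 1.14 that was not called without the filter on low counts (adjusted p = 0.0629). In the controls, Fbln7 and Ackr3 (136 against 65.1 CPM) were higher in GFP-positive than in GFP-negative bone, while Phex was lower there. The call of Pdpn (0.97) was lost in 15 of 21 settings, with differences of 0.82 to 1.05. Sost, the gene of the Wnt inhibitor sclerostin, is the best known osteocyte product, but its mean was at most 1.28 ± 0.62 CPM (SD, n = 3) in any of the 4 groups. At that level it had 0.941, 1.99 and 0.898 CPM in control and 0.31, 0.0515 and 0.129 CPM in knockout GFP-negative libraries, of which 2 lay under the level of 3 counts, and its difference was 3.04 ± 0.81 (SE, adjusted p = 0.0298, edgeR). This call was lost in 7 of 20 settings (no filter on low counts, and leaving out control GFP-positive replicate 3, control GFP-negative replicate 2, knockout GFP-positive replicates 1 or 2 or knockout GFP-negative replicates 2 or 3), with differences of 2.54 to 3.95 and adjusted p up to 0.1, and DESeq2 gave Sost no adjusted p. Between 3 and 6 genes of this list were called positive in the alternative settings, with 3 when no filter on low counts was used.

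Wnt signalling, which drives osteoblast commitment, had mixed calls. Among 13 secreted antagonists and related genes 3 were called positive and 1 negative (4.98% and 1.11% of all genes), with a median of 0.14. These counts ranged over 2 to 4 positive and 0 to 3 negative calls in the alternative settings. Frzb, which encodes a decoy receptor made by cartilage, had 202, 205 and 189 CPM in control and 229, 186 and 201 CPM in knockout GFP-positive libraries, and fell from 106, 111 and 104 to 47.00, 38.9 and 51.8 CPM in GFP-negative bone, a difference of 1.27 ± 0.20 (SE, adjusted p = 0.000558, edgeR). Dkk1, the LRP5/6 antagonist, had 5.09, 3.47 and 4.04 CPM in control and 3.47, 4.75 and 4.03 CPM in knockout GFP-positive libraries, and fell from 18.4, 21.1 and 20.4 to 7.75, 4.64 and 7.49 CPM in GFP-negative bone, a difference of 1.55 ± 0.35 (SE, adjusted p = 0.0121, edgeR). Both falls passed the test in GFP-negative bone, and in GFP-positive bone the genotypes overlapped. Notum, a Wnt deacylase gene, was the negative call at -1.10, lost in 8 of 21 settings (without control GFP-positive replicates 1 or 2, control GFP-negative replicates 1 or 2, knockout GFP-positive replicates 1 or 3 or knockout GFP-negative replicates 2 or 3) with differences of -1.28 to -0.95 and adjusted p up to 0.101.

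Of 21 Wnt ligands, receptors and targets, 1 was called positive and 1 negative (9.52% together, against 6.08% of all genes). Over the alternative settings 1 to 4 were called positive, with 4 under the replicate block within genotype, and 0 to 5 negative. Wnt4, a ligand made by prehypertrophic chondrocytes, rose from a mean of 57.98 ± 6.25 to 112 ± 8.49 CPM (SD, n = 3) in GFP-positive bone and had 34.9 ± 3.71 against 30.9 ± 2.90 CPM in GFP-negative bone, a difference of 1.13 ± 0.17 (SE, adjusted p = 0.000313, edgeR). The receptor gene Fzd1 rose from 44.2 ± 4.75 to 122 ± 11.8 CPM in GFP-negative bone and had 22.1 ± 4.96 against 27.9 ± 1.16 CPM in GFP-positive bone. Its difference of -1.13 was called at an adjusted p of 0.0442 (edgeR), and the call was lost in 13 of 21 settings (library totals and no filter on low counts, and leaving out control GFP-positive replicates 1 or 2, control GFP-negative replicates 1, 2 or 3, knockout GFP-positive replicates 1, 2 or 3 or knockout GFP-negative replicates 1, 2 or 3), with differences of -1.28 to -0.94 and adjusted p up to 0.121.

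Genes that respond to cyclic AMP and to PTH did not separate the subsets as a group. Of 31 genes 3 were called positive (9.68%, against 4.98% of all genes) and none negative, with a median of 0.11 against 0.07. In the alternative settings 1 to 4 were called positive and 0 to 2 negative. The count was 1 without control GFP-negative replicate 2, knockout GFP-positive replicate 2 or knockout GFP-negative replicate 3, and with no filter on low counts. The salt-inducible kinase gene Sik1 rose by 3.15 in GFP-positive and 2.73 in GFP-negative bone, and the osteoclast cytokine gene Tnfsf11 had effects of 0.17 and 0.97, with no called difference for either. Beside Sost, the calls were Fosl1 and Prkar2b. Fosl1, an AP-1 gene, had 19.1, 35.1 and 27.7 CPM in control and 124, 140 and 159 CPM in knockout GFP-positive libraries, and 8.34, 14.3 and 10.96 CPM in control and 15.4, 21.01 and 28.9 CPM in knockout GFP-negative libraries. It rose in both subsets, more in GFP-positive bone, and the difference was 1.43 ± 0.34 (SE, adjusted p = 0.0189, edgeR's quasi-likelihood test). It was not called without control GFP-negative replicate 2 or without the filter on low counts, with differences of 1.21 to 1.68 and adjusted p up to 0.0841. Prkar2b, a regulatory subunit gene of protein kinase A, rose in GFP-positive bone by 1.15, with a difference of 0.98 that lost its call in 5 of 21 settings (library totals, and leaving out control GFP-positive replicate 2, control GFP-negative replicate 1, knockout GFP-positive replicate 2 or knockout GFP-negative replicate 3), at 0.84 to 1.16 and adjusted p up to 0.0736.

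Fat cell and fatty acid genes had 4 positive calls and 1 negative call among 24 (20.8% together, against 6.08% of all genes), with a median of 0.33. The alternative settings called 3 to 5 positive and 1 to 2 negative. Fasn, the fatty acid synthase gene, had 46.98, 31.1 and 46.3 CPM in control and 373, 401 and 459 CPM in knockout GFP-positive libraries, and 31.7, 31.00 and 25.9 CPM in control and 85.7, 86.5 and 106 CPM in knockout GFP-negative libraries. It rose in both subsets without overlap, and more in GFP-positive bone, with a difference of 1.66 ± 0.22 (SE, 95% interval 1.21 to 2.11, adjusted p = 7.74e-05, edgeR). Scd2, a stearoyl-CoA desaturase gene, rose from 841, 832 and 919.6 to 1191, 1179 and 1339 CPM in GFP-positive bone and fell from 292, 298 and 313 to 167, 139 and 174 CPM in GFP-negative bone, a difference of 1.43 ± 0.14 (SE, adjusted p = 4.87e-06, edgeR). Acaca, which feeds Fasn with malonyl-CoA, had a difference of 1.79, and Cidea, a lipid droplet gene, one of 1.87 at means of at most 9.99 ± 2.33 CPM. The call of Acaca was lost without control GFP-negative replicate 3 (adjusted p = 0.051), and that of Cidea in 12 of 21 settings (library totals, no filter on low counts, the 12 bone libraries alone, the replicate block within genotype, a block shared by genotypes and the length trend removed under the block, and leaving out control GFP-positive replicates 1 or 3, control GFP-negative replicate 3, knockout GFP-positive replicate 1 or knockout GFP-negative replicates 2 or 3), with differences of 1.30 to 2.26 and adjusted p up to 0.281. The called genes of fat synthesis were thus on the positive side. The fat cell factor gene Zfp423 was the negative call, rising from 12.1 ± 1.63 to 21.5 ± 0.769 CPM in GFP-negative bone (SD, n = 3), a difference of -1.23 ± 0.26 (SE, adjusted p = 0.00806, edgeR). The fat cell genes Adipoq, Pparg and Lpl rose in GFP-positive bone by 1.65, 2.64 and 1.87, and their differences of 0.71, 1.56 and 0.23 were not called.

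Targets of ATF4, the factor of the amino acid response, had 3 positive calls and 1 negative call among 20 (4.98% and 1.11% of all genes). The positive calls ranged from 3 to 9 over the alternative settings, with 9 under the replicate block within genotype (3 in the same 12 libraries without it), 7 without knockout GFP-positive replicate 1 and 5 without knockout GFP-negative replicate 3. The negative call is Ddit4, described further on. Chac1, a glutathione-degrading enzyme gene, had 99.6, 108 and 104 CPM in control and 110.2, 99.8 and 90.2 CPM in knockout GFP-positive libraries, and 29.2, 31.00 and 31.5 CPM in control and 9.92, 10.8 and 12.9 CPM in knockout GFP-negative libraries. It fell in GFP-negative bone, the GFP-positive groups overlapped, and the difference was 1.40 ± 0.17 (SE, 95% interval 1.05 to 1.76, adjusted p = 3.19e-05, edgeR). Mthfd2, of mitochondrial folate metabolism, had the same form with a difference of 1.06 ± 0.22 (SE, adjusted p = 0.00569, edgeR), and Sesn2, an inhibitor of mTORC1, rose in both subsets with a difference of 0.84. The serine synthesis genes Phgdh, Psat1 and Psph fell by 0.87, 1.16 and 1.02 in GFP-positive bone and by 0.80, 1.06 and 0.92 in GFP-negative bone, with no called difference.

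Growth factor genes had 2 positive calls and 1 negative call among 33 (9.09% together, against 6.08% of all genes), with a median of 0.13. Over the alternative settings 2 to 5 were called positive, with 4 in the 12 bone libraries alone and 5 under the replicate block within genotype, and 0 to 3 negative. Bmp2, an inducer of bone and of chondrocyte hypertrophy, had 179, 169 and 172 CPM in control and 364, 377 and 453 CPM in knockout GFP-positive libraries, and 81.02, 101 and 109 CPM in control and 107, 82.7 and 129 CPM in knockout GFP-negative libraries. It rose in GFP-positive bone, the GFP-negative groups overlapped, and the difference was 1.07 ± 0.23 (SE, adjusted p = 0.00939, edgeR). The BMP antagonist gene Chrdl1 fell in GFP-positive bone by 0.70, and its difference of -0.68 lay close to the threshold (adjusted p = 0.0493, edgeR) and lost its call in 11 of 21 settings (no filter on low counts, and leaving out control GFP-positive replicates 1 or 3, control GFP-negative replicates 1 or 2, knockout GFP-positive replicates 1, 2 or 3 or knockout GFP-negative replicates 1, 2 or 3), with differences of -0.85 to -0.57 and adjusted p up to 0.134. The ligand gene Pthlh, which encodes parathyroid hormone-related protein, had 0.114, 0 and 0.144 against 0.822, 0.291 and 0.719 CPM in GFP-positive bone and 3.64, 2.41 and 5.75 against 6.51, 12.8 and 4.58 CPM in GFP-negative bone, and its difference was not called (adjusted p = 0.58, edgeR).

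Connective tissue and matrix genes separated at collagen VI. Col6a1 had 1371, 1252 and 1292 CPM in control and 2775, 3056 and 3022 CPM in knockout GFP-positive libraries, and 1003, 988 and 1114 CPM in control and 1428, 1326 and 1221 CPM in knockout GFP-negative libraries. Collagen VI forms the shell around chondrocytes among other places, and its gene rose in both subsets, more in GFP-positive bone, with a difference of 0.82 ± 0.13 (SE, adjusted p = 0.00048, edgeR). Col6a2 had a difference of 0.88 ± 0.12 (SE, adjusted p = 0.000198, edgeR). Timp1, a metalloprotease inhibitor gene, rose from a mean of 215 ± 24.5 to 324 ± 19.1 CPM (SD, n = 3) in GFP-positive bone and fell from 232 ± 2.54 to 159 ± 21.01 CPM in GFP-negative bone, a difference of 1.14 ± 0.19 (SE, adjusted p = 0.000887, edgeR). In all, 5 of 24 connective tissue genes were called positive (20.8%, against 4.98% of all genes), with a list median of 0.04. The count was 3 to 5 over the alternative settings. It was 3 with DESeq2's size factors, library totals alone, no filter on low counts and the length trend removed. It was also 3 without control GFP-positive replicates 2 or 3, control GFP-negative replicates 1 or 3, knockout GFP-positive replicates 2 or 3 or knockout GFP-negative replicates 1 or 3. The calls of Fn1 (0.88) and Col12a1 (0.58) were lost in 14 and 15 of 21 settings. Timp1 was the 1 call among 22 matrix protease genes (4.55%, near the 4.98% of all genes called positive).

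Several lists showed hardly any difference. Of 20 marrow stroma genes 19 rose in GFP-positive and 19 in GFP-negative bone. The 1 called difference (5%, near the 4.98% of all genes called positive) was that of the transcription factor gene Snai2 (0.61, adjusted p = 0.0085, edgeR). It was not called with library totals or with no filter on low counts (adjusted p up to 0.0869). Lepr and Cxcl12, which mark marrow stromal cells, rose by 1.89 and 1.92 in GFP-positive and by 1.99 and 1.45 in GFP-negative bone. No difference was called among 20 endoplasmic reticulum chaperone genes, 18 genes of osteoclast and blood cytokines or 16 interferon response genes. Over the alternative settings at most 2 positive calls and 1 negative call appeared in any of these 3 lists. Among 19 immediate early and heat shock genes, which react to tissue handling, 1 was called (5.26%, near the 4.98% of all genes called positive). It was the co-chaperone gene Dnajb1, at 0.93 (adjusted p = 0.0435, edgeR). Dnajb1 lost its call in 16 of 21 settings, among them those without any 1 library except knockout GFP-positive replicate 3, with differences of 0.76 to 1.18 and adjusted p up to 0.263. Its knockout GFP-positive libraries were far apart from each other, at 1988, 1796 and 1001 CPM.

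Markers of cells that the sort could have carried along gave few calls. None of the tested markers of neutrophils (7), macrophages (8), B cells (3), T and NK cells (1), erythroid cells (7), megakaryocytes (4), endothelium (6), osteoclasts (3) and smooth muscle or pericytes (7) was called. The differences of all 7 neutrophil, 8 macrophage, 7 erythroid and 7 smooth muscle markers nevertheless had a positive sign. The summed levels overlapped between the genotypes for neutrophils (4.17 to 137 CPM of library total over the 12 libraries), macrophages (5.50 to 48.2 CPM) and erythroid cells (18.6 to 472 CPM). The osteoclast markers summed to 144.5 to 163.5 CPM in control and 74.85 to 97.83 CPM in knockout GFP-positive bone, without overlap. In GFP-negative bone their sums were 332.4 to 362.2 and 229.5 to 303.8 CPM, also without overlap. Megakaryocyte sums were higher in the knockouts of both subsets without overlap, but reached at most 3.697 CPM. The T and NK cell markers Cd8a and Ncr1 were at 0 in all 12 libraries. The smooth muscle markers summed to 37.1 to 54.8 CPM in control and 19.7 to 33.8 CPM in knockout GFP-positive bone, and to 316.9 to 432.6 and 126.8 to 163.6 CPM in GFP-negative bone. Of 5 Schwann cell markers 3 were called positive (Sox10, Pmp22 and S100b; 60%, against 4.98% of all genes), with sums of 395 to 444 against 441 to 516.5 CPM in GFP-positive bone and 195 to 222 against 134 to 194 CPM in GFP-negative bone. The calls of Sox10 and S100b were lost in 6 and 14 of 21 settings, among them for both those without control GFP-positive replicate 1, control GFP-negative replicate 3 or knockout GFP-negative replicates 1, 2 or 3. Of 4 tested skeletal muscle markers Des was called (25%, against 4.98% of all genes), with a difference of 2.85 ± 0.45 (SE, adjusted p = 0.00053, edgeR). The skeletal muscle markers summed to 15.1 to 20.2 CPM in control and 29.5 to 33.2 CPM in knockout GFP-positive bone, without overlap. In GFP-negative bone the sums were 9.90 to 14.3 and 6.63 to 18.5 CPM. Myh4 was at 0 in every library of 3 of the 4 groups. The part of these cells in the results was not tested.

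The genes with the largest positive differences, among those at 5 CPM or more in a group, were mostly of low level. Art3, of the ADP-ribosyltransferase family, had 4.25, 4.77 and 6.35 CPM in control and 23.2, 20.1 and 17.6 CPM in knockout GFP-positive libraries, and 6.96, 6.82 and 7.19 CPM in control and 2.94, 2.42 and 3.16 CPM in knockout GFP-negative libraries. It rose in the first subset and fell in the second without overlap, with a difference of 3.31 ± 0.46 (SE, 95% interval 2.35 to 4.28, adjusted p = 0.000168, edgeR). Mypn, which encodes a sarcomere protein, had the same form, with 5.24, 9.82 and 11.6 against 34.4, 28.5 and 23.7 CPM and 2.07, 3.20 and 3.65 against 1.65, 0.876 and 1.36 CPM, and a difference of 2.93 ± 0.45 (SE, adjusted p = 0.000253, edgeR). Nes, the gene of the intermediate filament nestin, rose in GFP-positive bone from 0.342, 1.70 and 1.06 to 11.8, 9.84 and 20.6 CPM, with a difference of 2.94 ± 0.65 (SE, adjusted p = 0.0107, edgeR).

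Rlbp1, which encodes a retinaldehyde-binding protein, fell in GFP-negative bone from 7.34, 8.50 and 9.46 to 1.14, 0.773 and 0.71 CPM and had 19.3, 20.2 and 26.1 against 22.3, 12.7 and 15.3 CPM in GFP-positive bone, a difference of 2.88 ± 0.36 (SE, adjusted p = 2.24e-05, edgeR). The other genes of this group were the spindle gene Aspm (3.14), Dbpht2 (3.22), the trafficking gene Lrba (2.86), the kinase gene Pik3cd (3.10) and Tmem255a (3.07). Dbpht2 had 5, 3 and 2 counts in the knockout GFP-negative libraries (0.258, 0.155 and 0.129 CPM). Tmem255a had 16, 3 and 2 counts in the control GFP-positive libraries (0.608, 0.118 and 0.0962 CPM). Its mean reached 5 CPM only in control GFP-negative bone (5.80 CPM), and its knockout effect in that subset was not called. Both differences thus rest on a group with libraries near the level of 3 counts. Pik3cd lost its call without control GFP-negative replicate 2 (adjusted p = 0.17) or knockout GFP-negative replicate 3, with differences of 2.11 to 3.46 over all settings. Tmem255a lost it without control GFP-positive replicates 2 or 3 or knockout GFP-positive replicate 3, with differences of 2.69 to 4.44 and adjusted p up to 0.0618. The neuronal microtubule gene Map2 (2.64) and Slc35f1 (2.58) also rose in GFP-positive and fell in GFP-negative bone.

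The largest negative differences came mainly from genes that rose in GFP-negative bone. Thsd4, which encodes a protein that helps fibrillin assemble, had 3.68, 3.83 and 3.56 CPM in control and 5.21, 7.17 and 4.82 CPM in knockout GFP-positive libraries, and 3.64, 4.51 and 4.13 CPM in control and 21.3, 28.2 and 28.9 CPM in knockout GFP-negative libraries. The knockout GFP-negative libraries stood above all others, and the difference was -2.02 ± 0.29 (SE, 95% interval -2.62 to -1.41, adjusted p = 0.000222, edgeR's quasi-likelihood test). Kif26a, an atypical kinesin gene, rose in the same subset from 1.32, 1.21 and 1.74 to 10.6, 9.84 and 5.68 CPM, with a difference of -3.02 ± 0.54 (SE, adjusted p = 0.00188, edgeR). The receptor gene Fzd4 (-1.67), the diacylglycerol kinase gene Dgkq (-2.19), the centrosome gene Cep68 (-1.46) and the alcohol dehydrogenase gene Adh1 (-1.48) also rose there without a call in GFP-positive bone. Adh1 lost its call in 10 of 21 settings (no filter on low counts, and leaving out control GFP-positive replicates 1 or 3, control GFP-negative replicates 1, 2 or 3, knockout GFP-positive replicates 1 or 3 or knockout GFP-negative replicates 1 or 2), with differences of -1.73 to -1.24 and adjusted p up to 0.0931.

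Ddit4, an inhibitor of mTORC1 induced by stress, had 61.8, 34.4 and 52.3 CPM in control and 43.1, 54.6 and 33.5 CPM in knockout GFP-positive libraries, and 22.6, 13.2 and 5.51 CPM in control and 76.8, 69.5 and 36.9 CPM in knockout GFP-negative libraries. It rose in GFP-negative bone, with wide spread among the controls, and the GFP-positive groups overlapped. The difference of -2.33 ± 0.58 (SE, adjusted p = 0.0288, edgeR) lost its call in 8 of 21 settings (no filter on low counts, and leaving out control GFP-positive replicates 1 or 3, control GFP-negative replicate 2, knockout GFP-positive replicates 1 or 3 or knockout GFP-negative replicates 1 or 2), with values of -2.87 to -1.96 and adjusted p up to 0.0735 over all settings. Besides Egln1, Basp1 and Mettl8 are the genes of this group that fell in GFP-positive bone. Basp1, a membrane-associated signalling protein gene, had 29.9, 32.1 and 31.5 against 9.45, 8.19 and 7.48 CPM there and 48.9, 42.2 and 51.7 against 35.4, 35.5 and 33.4 CPM in GFP-negative bone, a difference of -1.43 ± 0.21 (SE, adjusted p = 0.000326, edgeR), and Mettl8, a tRNA methyltransferase gene, had a difference of -1.49.

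Genes that fell in GFP-positive and rose in GFP-negative bone were few, 8 of 944, and 4 of them met the rule for naming. Stk17b, a kinase gene, had 41.4, 43.9 and 38.8 CPM in control and 28.2, 32.2 and 30.1 CPM in knockout GFP-positive libraries, and 137, 119 and 132 CPM in control and 166, 178 and 159.6 CPM in knockout GFP-negative libraries. The groups were apart in both subsets, and the difference was -0.84 ± 0.18 (SE, adjusted p = 0.00728, edgeR). Pdk2, which encodes a kinase that shuts off pyruvate dehydrogenase, had a difference of -0.69 ± 0.14 (SE, adjusted p = 0.00728, edgeR), Tmem104 one of -1.16 and the zinc finger gene Zfp251 one of -1.34. Zfp251 lost its call in 4 settings that leave out 1 library each (control GFP-positive replicate 2, knockout GFP-positive replicates 1 and 2, knockout GFP-negative replicate 2), with differences of -1.49 to -1.02 and adjusted p up to 0.0528.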

How the data were processed

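RNA of sorted cells was turned into cDNA and libraries with low-input SMART-Seq v4 and SMARTer ThruPLEX chemistry, per the labels' protocols. Each deposited file holds raw counts of reads for every gene, written by featureCounts per the file headers, beside the length of the gene. The submitters' processing notes name STAR, featureCounts, DESeq2 and mm10 without versions. How strand and reads with several matches were treated was not given in the sources used here. Values of antisense partners, overlapping genes and near-identical copies are therefore uncertain.

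From these counts, edgeR 4.0.16 in R 4.3.3 was run on all 18 libraries with 1 mean for each of 6 groups, TMM scaling, filterByExpr by group (15516 of 54446 genes kept), glmQLFit with robust settings and glmQLFTest on the difference of differences, 2-sided, with p-values adjusted by Benjamini-Hochberg over all genes and called under 0.05. SEs are the log2 difference over the root of F. Gene names came from the reference tables, which matched 54409 identifiers. Libraries of a group differed by 14.9 to 48.6 times the sampling noise, so none was a duplicate. Intervals cover 95% and rest on the spread between libraries, while the level of 3 counts covers counting error only.

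Named genes are Pth1r and, among genes that were called, had at least 5 CPM in 1 of the 4 groups and whose subset ratios did not overlap between genotypes (839 genes), the 10 largest differences per direction, up to 6 genes with opposite calls per direction and up to 3 genes per list by p. Of the 944 called genes 937 met the condition on the ratios, so it removed few. Among all genes tested the ratios did not overlap for 17.8% with the knockout higher and 10.6% with it lower. Genes outside this rule (such as Cyp51, Col2a1, Sost, Hif1a and Des) were chosen after their values were seen, as members of the 21 function lists or 13 marker lists. The comparison and the lists were chosen with earlier results of these data known, and lists are described by counts and medians without a test. Single values of some list members are not reported here.

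Same-numbered libraries of the 2 subsets deviated together within a genotype (correlation of deviations 0.134 to 0.248 in controls and 0.228 to 0.407 in knockouts, genes of at least 5 CPM), but not between genotypes (none of 6 over 0.1). By these values, not by the labels, equal numbers pair libraries within a genotype. The reported fit has no replicate term, and the pairing enters only the alternative with a replicate block, fitted on the 12 bone libraries. Over all tested genes 4 of the 6 correlations were over 0.1. Tested on simulated data for this comparison (15159 genes), the fit recovered 60% of 2-fold and 92% of 4-fold differences, and 5.59% of its calls were false. The changed genes averaged at least 5 CPM, with as many rises as falls. Counts were drawn from the dispersion trend, and libraries independently of each other. The rates therefore do not cover genes of lower level, paired libraries or an uneven split of directions. The alternatives were other scalings, DESeq2 1.42.0, no filter, 12 libraries only, replicate blocks, removal of a length trend (natural spline, 4 df) and leaving out each library.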

Additional observations from a re-analysis of the deposited data

Results flagged for a closer look

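A test of the difference itself separated the knockout effects of the 2 bone subsets for 944 genes, and each named gene below passed it (edgeR's quasi-likelihood test with Benjamini-Hochberg adjustment, threshold 0.05). The values are differences of knockout effects on the log2 scale, GFP-positive minus GFP-negative. The highest were Art3 3.31, Dbpht2 3.22, Cenpf 3.15, Aspm 3.14, Pik3cd 3.10, Tmem255a 3.07, Nes 2.94, Mypn 2.93, Rlbp1 2.88, Lrba 2.86, Map2 2.64 and Slc35f1 2.58. Those of Dbpht2 and Tmem255a rest on a group with libraries near the level of 3 counts. Next came Acan 2.13, Epyc 1.90, Col9a3 1.89, Fasn 1.66, Cdc20 1.63, Lss 1.63, Hmgcs1 1.62, Ihh 1.59, Dkk1 1.55, Top2a 1.55 and Fdft1 1.51. Positive differences of moderate size were Scd2 1.43, Phex 1.43, Fosl1 1.43, Chac1 1.40, Frzb 1.27, Slc2a1 1.19, Aldoc 1.18, Timp1 1.14, Ackr3 1.14, Wnt4 1.13, Mcm6 1.12, Bmp2 1.07, Mthfd2 1.06 and Fbln7 1.05. Small positive differences were Prkar2b 0.98, Dnajb1 0.93, Col6a2 0.88, Alpl 0.87, Sesn2 0.84, Dlx3 0.83, Col6a1 0.82, Hk1 0.65 and Snai2 0.61. The negative differences were Kif26a -3.02, Ddit4 -2.33, Dgkq -2.19, Thsd4 -2.02, Fzd4 -1.67, Egln1 -1.58, Mettl8 -1.49, Adh1 -1.48, Cep68 -1.46, Basp1 -1.43, Zfp251 -1.34, Zfp423 -1.23, Tmem104 -1.16, Fzd1 -1.13, Notum -1.10, Mxi1 -0.86, Stk17b -0.84, Bnip3l -0.73, Pcolce -0.71, Pdk2 -0.69, Chrdl1 -0.68 and Fam162a -0.66. Genes of cartilage, cholesterol synthesis and the cell cycle stand among the positive values, and hypoxia targets stand among both the large and the small negative values.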

How the results depend on the processing

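Of the 68 named genes with a called difference, 51 kept direction and call in all 21 alternative settings, 17 lost the call in at least 1 and none reversed. The count of 944 calls was 1420 with DESeq2 (2419 genes with an adjusted p of NA) and 1440 with the replicate block within genotype, which also left out the other 6 libraries (1027 in the same 12 libraries without the block). The 772 positive calls became 457 with library totals alone, 474 without the filter and 1160 with the block. The 172 negative calls became 259 with DESeq2's size factors, 278 with library totals, 548 with DESeq2, 280 with the block, 419 with the length trend removed and 629 with that and the block. Leaving out 1 library gave 663 to 855 calls, 557 to 725 positive and 97 to 152 negative, and the knockout effect was called for 7070 to 8010 genes in GFP-positive and 6391 to 7380 in GFP-negative bone. The negative count fell by over 1.5 times without control GFP-positive replicate 1 (101), control GFP-negative replicate 3 (97), knockout GFP-positive replicates 2 (110) and 3 (108) and knockout GFP-negative replicates 1 (106) and 2 (106), and the cause was not tested. Pth1r changed sign, always far from the threshold: -0.0338 with DESeq2's size factors and with DESeq2, -0.11 with library totals, -0.0751 without the filter, -0.0738 with the length trend removed, -0.0908 with that and the block, and -0.10 to 0.18 when 1 library was left out. The replicate block changed the call of none of the 69 named genes. With 3 libraries per group the fit recovered 60% of simulated 2-fold differences among genes averaging at least 5 CPM. A gene without a call may therefore still differ, and for genes of a few CPM counting error adds to the spread.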

Other observations

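Of 12 genes outside the lists that act in making the sulfated sugar chains of proteoglycans, 5 were called positive and 7 were not called. Among all genes 4.98% were called positive. The 12 were chosen after values were seen and not tested as a group, so their count is a description. Xylt1, which starts these chains, rose from a mean of 29.9 ± 1.30 to 90.7 ± 17.96 CPM (SD, n = 3) in GFP-positive bone and fell from 13.3 ± 2.66 to 9.33 ± 0.484 CPM in GFP-negative bone, a difference of 2.11 ± 0.22 (SE, adjusted p = 9.27e-06, edgeR). Its paralog Xylt2 had a difference of -0.29 that was not called. Papss2, which makes the sulfate donor, rose by 0.36 in the first and fell by 1.28 in the second subset, a difference of 1.64 ± 0.20 (SE, adjusted p = 3.19e-05, edgeR), and its paralog Papss1 fell in both, with a difference of -0.11 that was not called. The sulfate transporter gene Slc26a2 (1.09), the chondroitin chain gene Csgalnact1 (1.63) and the chondroitin sulfotransferase gene Chst11 (1.39) were called positive. Among the enzymes of the shared linker, B4galt7 (-0.10) and B3gat3 (-0.01) were not called, nor were Chsy1 (0.61), Chpf (0.33) and Ugdh (0.35).

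Other called genes, also chosen after their values were seen, were transcription factors and signalling genes. Foxa2 and Foxa3, factors of hypertrophic cartilage, had differences of 1.44 ± 0.31 (SE, adjusted p = 0.0081, edgeR) and 1.37 ± 0.14 (SE, adjusted p = 8.99e-06, edgeR). Foxa2 rose in GFP-positive bone by 1.22, and Foxa3 fell in GFP-negative bone by 1.41. Enpp2, the gene of autotaxin, rose from a mean of 276 ± 13.8 to 728 ± 28.7 CPM (SD, n = 3) in GFP-positive bone and had 131 ± 14.1 against 111 ± 13.5 CPM in GFP-negative bone. The bradykinin receptor gene Bdkrb1 had a difference of 2.22 ± 0.21 (SE, adjusted p = 2.31e-06, edgeR). On the negative side, the Wnt receptor gene Fzd8 rose from 52.6 ± 8.34 to 117 ± 12.4 CPM in GFP-negative bone and had 31.6 ± 1.99 against 27.8 ± 3.72 CPM in GFP-positive bone, a difference of -1.33 ± 0.21 (SE, adjusted p = 0.000568, edgeR). The activin antagonist gene Fst had a difference of -1.27 ± 0.25 (SE, adjusted p = 0.00379, edgeR), rising by 1.89 in GFP-negative and 0.62 in GFP-positive bone. Ctnnb1, the gene of beta-catenin, rose by 0.44 in GFP-negative bone, with a difference of -0.57. Hedgehog target genes Gli1 and Ptch1 had differences of 0.10 and 0.51 that were not called.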
